A study of Mus musculus with 6 samples.

Results

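The 9 genes described here are the secreted BMP ligands Bmp2, Bmp4, Bmp5, Bmp6 and Bmp7, the secreted antagonists Grem1, Nog and Chrd, and the membrane pseudoreceptor Bambi. They were chosen by symbol: the platform annotation gave exactly 1 of these names to 13 of the 45101 probe sets of the array, 3 each to Bmp5 and Bmp7 and 1 to each of the other genes, and 0 member probe sets carried several names. The annotation named 18193 genes in all. RNA was taken from mouse embryos at E11.5, from EGFP-positive cells of the intermediate mesoderm isolated by flow sorting, in 3 samples from Pax2 heterozygotes (titled EGFP/+) and 3 from Pax2 nulls (titled EGFP/EGFP). Both groups thus carry the EGFP allele, the controls lack 1 working copy of Pax2, and no wild-type sample is analysed here. The labels do not say how many embryos or litters went into a sample, so p-values reflect only how far the 6 samples scatter, part of which may be technical. The question was which expression in these cells depends on Pax2, a transcription factor required for kidney formation.

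BMPs are secreted signals of the TGF-beta superfamily that bring type I and type II receptor kinases together on the target cell and act through Smad1, Smad5 and Smad9. In the early kidney, Bmp4 from the mesenchyme around the nephric duct restrains budding, Grem1 binds BMPs and so permits the ureteric bud to grow out, and Bmp7 from the bud and the mesenchyme sustains nephron progenitors. Noggin and chordin, the products of Nog and Chrd, also trap BMPs outside the cell, and Bambi resembles a receptor without a kinase.

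Of the 13 probe sets, 2 passed the test, both for Bmp5 and both higher in null cells (limma, adjusted p under 0.05). Of all probe sets tested, 45037, the share that passed was 0.691%, with 0.391% higher and 0.300% lower in null. All 3 probe sets of Bmp7, a close relative of Bmp5, stood lower in null with means 1.86 to 2.48 times apart, but none passed in this test, the nearest having an adjusted p of 0.0596. Grem1 was also lower in every null sample without passing. For Bmp2, Bmp4, Bmp6, Nog, Chrd and Bambi the samples of the genotypes overlapped.

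**Figure D1:**
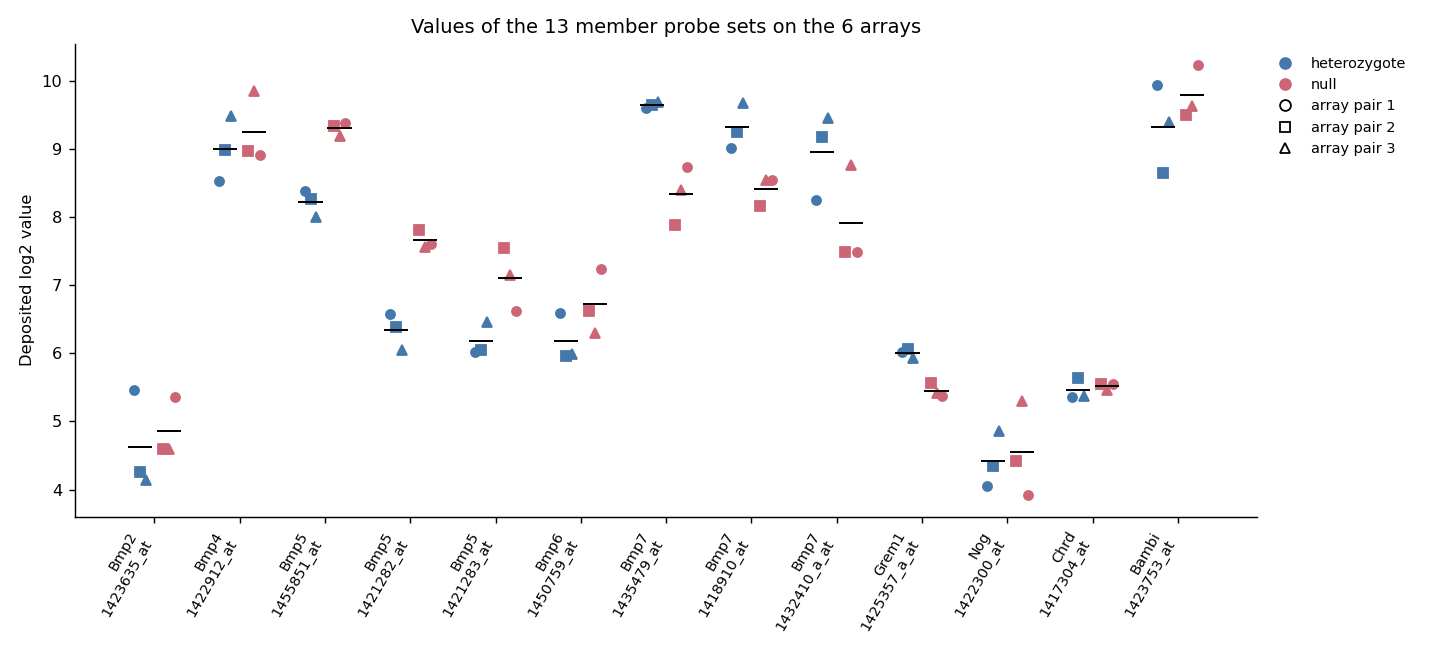
Deposited log2 values of the 13 member probe sets (horizontal axis) on each array, heterozygote in blue and null in red, with group means as black lines and marker shape showing the array pair. Bmp5 probe sets sit higher in null and Bmp7 and Grem1 lower, with overlap on Bmp7 1432410_a_at. The genotypes of the other genes overlap.

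Median log2 values of the arrays lay between 6.12 and 6.24, and arrays of 1 genotype correlated at 0.976 to 0.991. The bacterial hybridization controls, which are added to every sample at the hybridization step, split the arrays into 3 pairs of 1 heterozygote and 1 null each (heterozygote 1 with null 3, heterozygote 2 with null 1, heterozygote 3 with null 2). These pairs come from the data and not from the labels. In sex-linked genes, which are not given here for null 3, null 1 had Xist at 4.02 against 8.84 in null 2. Heterozygote 2 had Eif2s3y at 3.92 against 8.15 and 8.32 in heterozygotes 1 and 3. Xist was at 11.69 in heterozygote 2 and Eif2s3y at 8.95 in null 1. Heterozygotes 1 and 3 and null 2 had both, with Xist at 10.38, 10.97 and 8.84 and Eif2s3y at 8.15, 8.32 and 7.90. These samples thus held female-linked and male-linked RNA together, unlike heterozygote 2 and null 1. The part of sex in the differences between genotypes was not tested. The genotype labels were not checked against Pax2, which is not analysed here. The mean of a heterozygous array lay between 9.53 and 10.09 over 11 metanephric mesenchyme genes and between 8.79 and 9.25 over 11 duct genes (log2). Over 12 stromal genes it was 7.92 to 8.56, over 7 erythroid genes 6.56 to 7.58 and over 8 endothelial genes 4.83 to 5.24. Other marker lists lay between 4.74 and 6.43. The lists rest on different probe sets, so these levels do not measure how much of each cell type was present.

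Bmp5, a ligand best known for its part in skeletal and mesenchymal development, rose in null cells. Its brightest probe set, 1455851_at, read 8.38, 8.26 and 7.99 in heterozygotes 1, 2 and 3 and 9.34, 9.19 and 9.38 in nulls 1, 2 and 3 (log2). Every null sample was above every heterozygous one, and the means of 8.21 ± 0.20 and 9.30 ± 0.10 (SD, n = 3 each) differed by 1.09 ± 0.17 (SE), a 2.13-fold rise (limma, adjusted p = 0.0378). Probe set 1421282_at went from 6.58, 6.39 and 6.05 to 7.81, 7.56 and 7.60, a rise of 1.32 ± 0.19 (SE) or 2.49-fold (limma, adjusted p = 0.0292). The third, 1421283_at, read 6.01, 6.05 and 6.46 in heterozygotes and 7.54, 7.14 and 6.63 in nulls. Its groups did not overlap either, with a difference of 0.93 ± 0.26 (SE), but it did not pass (limma, adjusted p = 0.269). Both calls of Bmp5 held with the array pair as a block (limma, adjusted p = 0.0229 and 0.0245). With 1 array left out they held without heterozygote 1 and were lost without heterozygote 2 or 3 or without null 1, 2 or 3, where limma's adjusted p reached 0.168 for 1455851_at and 0.127 for 1421282_at while the differences stayed between 0.98 and 1.17 and between 1.17 and 1.44.

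Bmp7 was lower in null cells on each of its probe sets. Probe set 1435479_at read 9.60, 9.65 and 9.68 in heterozygotes 1, 2 and 3 and 7.88, 8.40 and 8.73 in nulls 1, 2 and 3 (log2). The heterozygous samples lay within 0.04 (SD) of 9.64, whereas the null samples spread over a wider range (8.34 ± 0.43, SD, n = 3 each), and the groups did not overlap. The difference was -1.31 ± 0.23 (SE) with a 95% interval of -1.83 to -0.78 and missed the threshold in the fit over all probe sets (limma, adjusted p = 0.0596). It passed when each gene was represented by its brightest probe set only (limma, adjusted p = 0.0341, in a fit where 1.39% of 18193 genes passed) and when only probe sets with 1 gene symbol were tested (0.0449). With the array pair as a block it did not pass (limma, adjusted p = 0.0505). Leaving out any 1 array kept the difference between -1.50 and -1.08, with adjusted p up to 0.233.

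The other Bmp7 probe sets pointed the same way with more scatter. Values of 1418910_at were 9.02, 9.25 and 9.68 in heterozygotes against 8.16, 8.54 and 8.55 in nulls, again with no overlap, and differed by -0.90 ± 0.22 (SE; limma, adjusted p = 0.184). Those of 1432410_a_at, a design for alternative transcripts of the gene, were 8.24, 9.17 and 9.46 against 7.49, 8.77 and 7.48. On this probe set null 2 lay above heterozygote 1, so the groups overlapped, and the difference was -1.04 ± 0.43 (SE; limma, adjusted p = 0.614).

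Bmp5 and Bmp7 were set against each other within each array, which removes any shift common to an array. The Bmp5 value minus the Bmp7 value, each from the gene's brightest probe set, was -1.22, -1.38 and -1.69 in heterozygotes 1, 2 and 3 and 1.46, 0.79 and 0.65 in nulls 1, 2 and 3 (log2). The means of -1.43 ± 0.24 and 0.96 ± 0.43 (SD, n = 3 each) differed by 2.40. Each of these probe sets already separated the genotypes, in opposite directions, so their difference had to separate them too, and no test of it is given. The sign of a difference between probe sets of unlike brightness has no meaning of its own, and only its shift between genotypes is read here.

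The remaining ligands gave no call. Bmp4, the mesenchymal ligand that restrains budding, read 8.53, 8.98 and 9.48 in heterozygotes 1, 2 and 3 and 8.96, 9.85 and 8.91 in nulls 1, 2 and 3 (log2). The genotypes overlapped, and the difference of 0.24 ± 0.33 (SE) had a 95% interval of -0.52 to 1.01. Bmp2, which shares the Bmp4 subgroup of ligands, read 5.47, 4.25 and 4.14 against 4.60, 4.60 and 5.36, a difference of 0.24 ± 0.38 (SE). Its mean, like that of Nog, was below 4.81, the 33rd percentile over the array, a range where RMA compresses differences. Bmp6, which with Bmp5 and Bmp7 forms another subgroup, read 6.59, 5.97 and 5.98 against 6.63, 6.30 and 7.24. Here 2 null samples exceeded all heterozygous ones and the third did not, with a difference of 0.54 ± 0.28 (SE) and an interval of -0.11 to 1.20 (limma, adjusted p = 0.806).

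Among the antagonists, only Grem1 separated the genotypes. It read 6.02, 6.06 and 5.93 in heterozygotes 1, 2 and 3 and 5.57, 5.42 and 5.38 in nulls 1, 2 and 3 (log2). Each null sample was below each heterozygous one, and the samples of a genotype lay close together (SD 0.07 in heterozygotes and 0.10 in nulls, n = 3 each). The difference of -0.55 ± 0.15 (SE), with an interval of -0.89 to -0.21, did not pass (limma, adjusted p = 0.244) in this fit or in any of the alternatives run, where adjusted p was at least 0.0848. Nog read 4.06, 4.34 and 4.87 in heterozygotes against 4.42, 5.30 and 3.92 in nulls, with a difference of 0.13 ± 0.37 (SE). Chrd read 5.36, 5.63 and 5.38 against 5.55, 5.46 and 5.55, and its difference of 0.06 ± 0.15 (SE) had an interval of -0.29 to 0.42, the narrowest among the genes with no separation. Bambi, the pseudoreceptor, read 9.94, 8.64 and 9.39 against 9.50, 9.63 and 10.22. Its groups overlapped through heterozygote 1, and the difference was 0.46 ± 0.34 (SE; limma, adjusted p = 0.959).

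**Figure D2:**
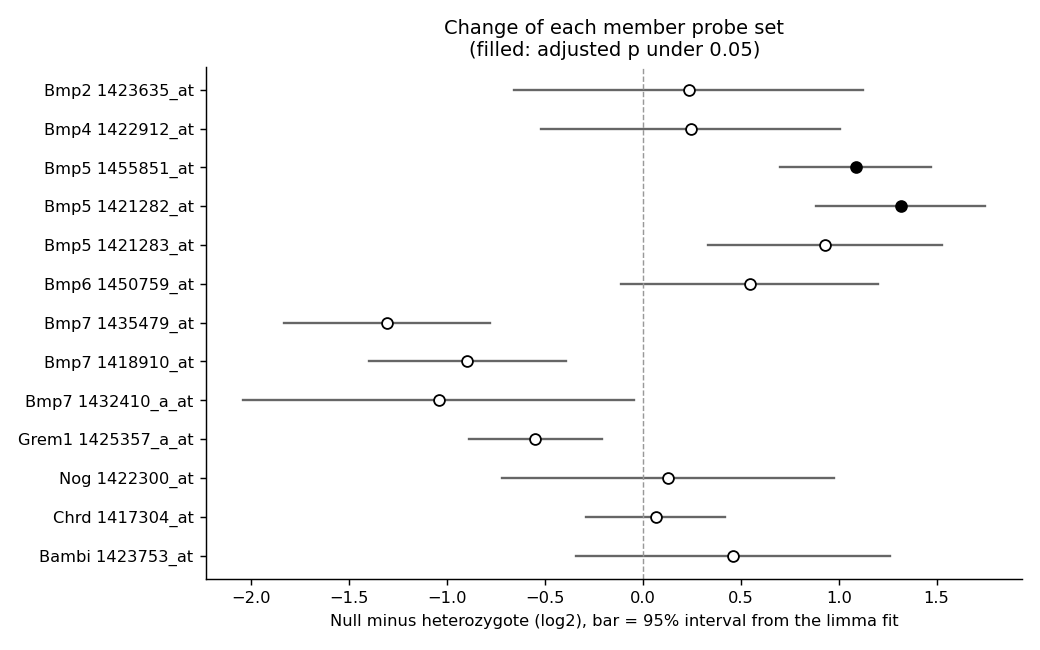
Null minus heterozygote on the log2 scale for each member probe set, with 95% intervals from the limma fit; filled points passed at an adjusted p under 0.05. The filled points are 2 Bmp5 probe sets at 1.09 and 1.32, and the 3 Bmp7 probe sets and Grem1 lie left of 0 with intervals that exclude it.

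In total the samples of the genotypes did not overlap on 6 of the 13 probe sets (the 3 of Bmp5, 2 of Bmp7 and that of Grem1). Of all tested probe sets, 11.7% showed no overlap. Probe sets of the same gene are not independent, so these are not counts of separate genes. At an unadjusted p under 0.05 the count was 7 of 13, with 7.66% of all tested probe sets. The members' changes had a median of 0.24, and 9 of 13 were positive, beside a median of -0.01 and 21332 positive of 45037 over the whole table. With the array pair as a block, the members called were again the 2 Bmp5 probe sets, while the share of all probe sets that passed was 1.71%.

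Differences within the array pairs had 1 sign on 9 of the 13 probe sets, as 38.1% of all tested probe sets did. On Bmp5 1455851_at they were 0.996, 1.07 and 1.19 in pairs 1, 2 and 3, and on Bmp7 1435479_at -0.88, -1.77 and -1.28 (log2). Grem1 was lower by similar amounts in each pair, with differences of -0.64, -0.49 and -0.51. Bmp6 and Bambi were higher in the null array of every pair, by 0.32 to 0.66 and by 0.23 to 0.86, although their groups overlapped. The exceptions were Bmp2, Bmp4, Nog and Chrd, whose differences took both signs.

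**Figure D3:**
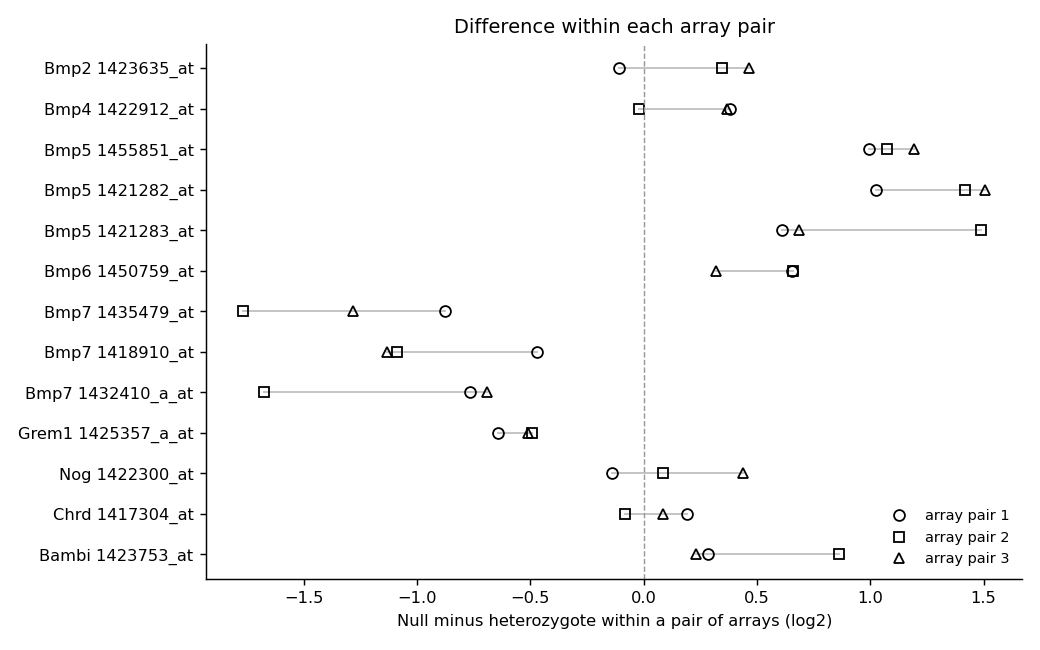
Null minus heterozygote within each of the 3 array pairs (log2), 1 row for each member probe set and 1 marker shape for each pair. Bmp5 lies between 0.61 and 1.51 and Bmp7 between -1.77 and -0.47 in every pair, and Bmp2, Bmp4, Nog and Chrd lie on both sides of 0.

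Markers of cell types in the sorted population also differed between the genotypes. Stromal markers, the genes of the loose mesenchyme around the nephric structures, were higher in null for 12 of 12 measured genes, 6 of them called (among them Col1a2, Pdgfrb and Dcn), and their mean level was 7.92 to 8.56 in heterozygotes and 9.53 to 9.83 in nulls (log2). Duct markers were lower for 11 of 11, 6 of them called (among them Gata3, Ret and Mal), with levels of 8.79 to 9.25 against 6.58 to 7.16. Metanephric mesenchyme markers were lower for 10 of 11, 3 of them called (Sall1, Gdnf and Traf1). Their mean level was 9.53 to 10.09 against 8.98 to 9.35. Changes of the 10 ran from -0.03 for Itga8 to -2.01 for Gdnf. The exception, Cited1, had every null sample above every heterozygous one. It was higher by 1.76 ± 0.33 (SE) without passing (limma, adjusted p = 0.0822), and passed with the array pair as a block (limma, adjusted p = 0.0226). Bmp5 was higher in null, as the mean stromal level was. Bmp7 and Grem1 were lower, as the mean duct and mesenchyme levels were. Each of these levels, and the brightest probe set of each gene, already separated the genotypes, so the match had to follow. The mean levels of the macrophage, gonad and adrenal, endoderm and notochord lists given below were higher in null as well. The part of cell makeup in these differences was not tested. In sorted bulk RNA, fewer cells of a type and less RNA per cell cannot be told apart. Macrophage markers were higher in null for 11 of 11 genes with none called, at 5.28 to 6.43 against 6.49 to 7.95, and gonad and adrenal markers for 8 of 8 with 1 called, at 5.67 to 6.19 against 6.81 to 7.09. Endoderm and urothelium markers were higher for 8 of 10, with 3 called (Trp63, Krt5 and Foxa2) and levels of 4.74 to 4.85 against 5.88 to 6.12. The 3 called genes, Shh and Foxa1 were higher by 1.07 to 4.20. On the rest, the uroplakin genes Upk1b, Upk2 and Upk3a with Krt14 and Sox17, the genotypes overlapped, with changes of -0.13 to 0.33. In the list of paraxial mesoderm with muscle, Meox2 fell by 1.77 ± 0.22 (SE; limma, adjusted p = 0.0211), the only call of 8 genes. The mean level of that list was 6.25 to 6.35 against 5.63 to 5.94, with a median change of -0.16. Of 4 measured genes of notochord with floor plate, 3 were higher and 1, Foxa2, was called, with mean levels of 5.01 to 5.50 against 5.79 to 6.55. Foxa2 and Shh are also in the endoderm list, so the call is the same one, and the higher level is not separate from that list's. On the other genes, Foxj1 and Ntn1, the genotypes overlapped, with changes of 0.21 and -0.66. The lists of endothelium, neural and erythroid genes had overlapping levels, median changes of 0.07, 0.05 and 0.40, and none called. Within the neural list, Stmn2 and Elavl4 separated the genotypes in opposite directions, by 2.64 and -1.54, without passing (limma, adjusted p = 0.0682 and 0.0822). They passed with the array pair as a block (limma, adjusted p = 0.0267 and 0.0170).

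**Figure D4:**
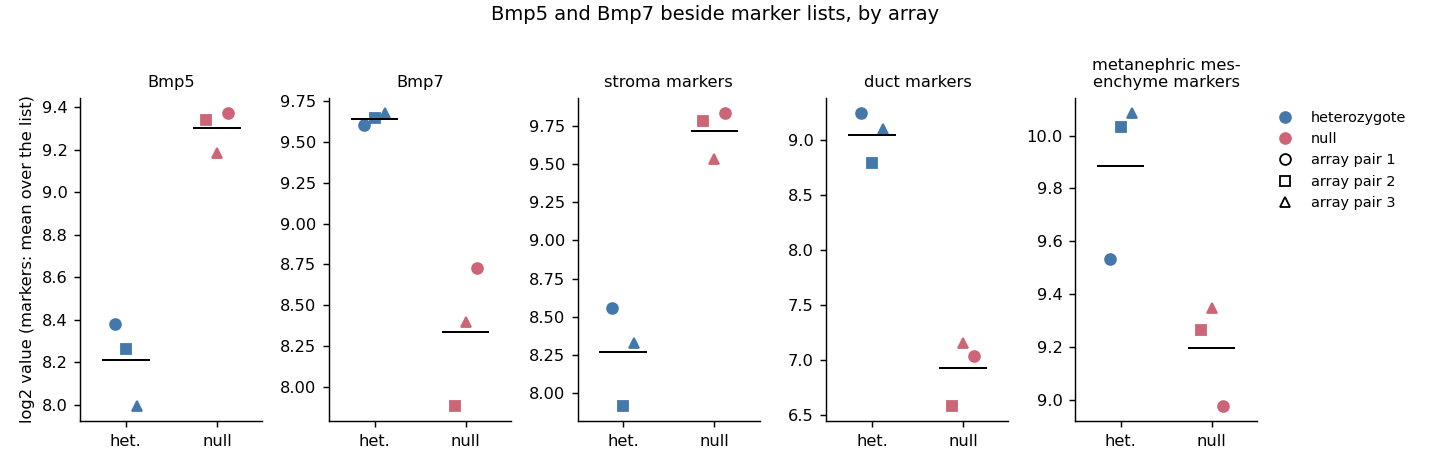
Log2 values by array of the brightest Bmp5 and Bmp7 probe sets beside the mean log2 value over the stroma, duct and metanephric mesenchyme marker lists, with group means as lines and marker shape showing the array pair; the vertical scales differ and do not start at 0. In all 5 panels the genotypes do not overlap, with Bmp5 and stroma higher and the other 3 lower in null.

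The genes whose values ran closest to Bmp5 over the 6 arrays were Cldn11 (Pearson r = 0.997), which encodes a tight junction protein, St8sia4 (0.996), which encodes a polysialyltransferase, and Jam2 (0.993), which encodes a junctional adhesion molecule. They were the highest of 1867 genes with enough signal and spread to be compared. The 6 points share the split by genotype, so these values describe the arrays only.

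The set of RefSeq promoter windows (GRCm38.p6) used here held 5 of the 9 genes: Bmp4, Bmp5, Bmp6, Grem1 and Chrd. It had no window for Bmp2, Bmp7, Nog or Bambi. The 250 bases before the start of Bmp5, the gene that passed, and of Grem1, the antagonist with separated genotypes, are shown because these are the members with a window whose genotypes did not overlap, Bmp5 higher and Grem1 lower in null. They run 5′ to 3′ along the gene, with every CG dinucleotide, the site of DNA methylation in mammals, in capitals.
Bmp5, chr9:75775115-75775364, plus strand: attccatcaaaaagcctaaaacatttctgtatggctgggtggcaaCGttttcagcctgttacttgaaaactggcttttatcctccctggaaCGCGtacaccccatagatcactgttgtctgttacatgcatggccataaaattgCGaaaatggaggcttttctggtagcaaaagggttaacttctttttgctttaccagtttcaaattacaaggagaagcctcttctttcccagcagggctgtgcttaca
Grem1, chr2:113758649-113758898, minus strand: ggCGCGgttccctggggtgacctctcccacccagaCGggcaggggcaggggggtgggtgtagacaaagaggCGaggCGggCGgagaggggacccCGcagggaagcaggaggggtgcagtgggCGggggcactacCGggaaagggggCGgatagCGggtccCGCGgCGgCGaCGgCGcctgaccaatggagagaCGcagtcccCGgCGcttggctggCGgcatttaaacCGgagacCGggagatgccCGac

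The Bmp5 window had 4 CG dinucleotides and 42.8% G and C, and the Grem1 window had 24 and 72.0%, beside medians of 6 and 52.4% over 32841 windows of the same length. The windows of Bmp4, Bmp6 and Chrd had 11, 22 and 28 CG dinucleotides, so that of Bmp5 had the fewest of the 5. Searched on both strands, GGGCGG (the GC box bound by Sp1-type factors) occurred 3 times in the Grem1 window, and CCAAT and GGCGCC (a GC-rich sequence bound by BMP Smads) occurred once each, with no overlap among them. These motifs were present at least once in 32.7%, 33.9% and 9.59% of all windows. The shares are over windows of any composition and were not matched to the 72.0% G and C of the Grem1 window, so they do not show whether its matches are unusual. The Bmp5 window held none of the 5 motifs searched, which also included TATAAA (12.4% of windows) and the Smad palindrome GTCTAGAC (0.167%). A match is a run of letters and was not tested as a binding site.

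The rest of the BMP pathway was read from a list of 70 other genes, of which 64 were measured on 130 probe sets. None passed in either direction (limma, adjusted p under 0.05), and 9 of the 130 had an unadjusted p under 0.05, or 6.92%. Their median change was 0.11, with 82 of 130 positive, and 13 showed no overlap, or 10%. Split by role, the median change was -0.0018 for 17 probe sets of other ligands, 0.10 for 40 of other extracellular regulators, 0.09 for 26 of receptors, 0.12 for 25 of Smads and their partners, and 0.19 for 22 of response genes.

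**Figure D5:**
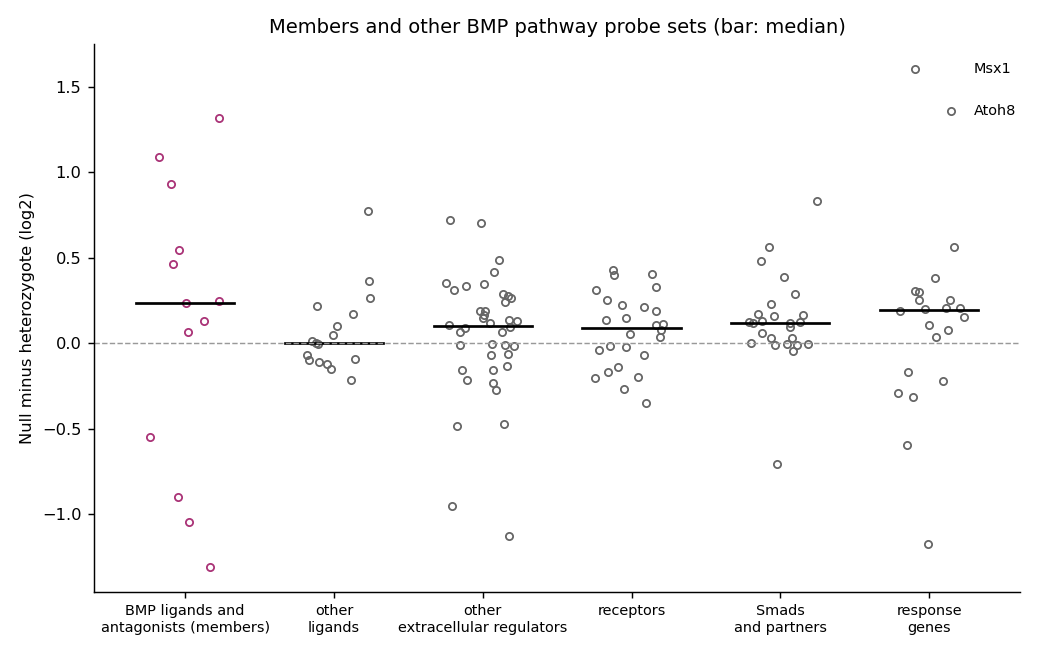
Null minus heterozygote (log2) for every probe set of the members and of the other BMP pathway genes by role, each point a probe set and each bar a median. The members reach from -1.31 to 1.32, and most other pathway probe sets lie nearer 0, with Msx1 at 1.60 and Atoh8 at 1.36 the highest.

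The 4 pathway genes with the smallest p were response genes, an antagonist and a Smad. Atoh8, a transcription factor induced by BMP signals, read 6.79, 6.19 and 6.71 in heterozygotes and 7.65, 8.24 and 7.87 in nulls, a difference of 1.36 ± 0.23 (SE; limma, adjusted p = 0.0555). Msx1, a homeobox target of BMPs, read 6.28, 5.20 and 5.81 against 7.21, 7.38 and 7.50 on probe set 1448601_s_at (1.60 ± 0.27, SE; limma, adjusted p = 0.0558), while its other probe set, 1417127_at, differed by 0.30 ± 0.20. Both genes passed with the array pair as a block and with 1 probe set per gene. Sostdc1, a secreted BMP and Wnt antagonist, differed by -0.95 ± 0.22 (SE) on one probe set and -1.13 ± 0.59 on the other, and Smad9, a mediator of BMP signals, by 0.83 ± 0.24, and neither passed (limma, adjusted p = 0.162 or more).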

How the data were processed

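RNA from 6 samples was labelled from 10 ng each and hybridized to 1-colour Affymetrix arrays, 1 array per sample. The authors deposited log2 values, 1 per probe set and array; the submitters' processing notes name affy, RMA and limma and give no version or setting. RMA equalizes the distributions of arrays, which hides differences in total RNA, and compresses differences between dim probe sets. Precision is limited by having 6 arrays. Samples were grouped by the genotype in their labels and numbered in accession order within a genotype. All 45037 probe sets that are not array controls (64) were fitted with limma 3.58.1 in R 4.3.3 (lmFit, eBayes, two-sided, no covariates, no filter), with Benjamini-Hochberg adjustment over all of them and calls made below 0.05. A positive change means higher in null, SE and 95% intervals come from the fit, and a fold is 2 to the power of the change. Array pairs are the closest of 15 matchings over 14 hybridization controls. Marker levels use the brightest probe set of each gene. The fit was also run on simulated data with independent noise and no array pairs, so that run does not cover the pair structure of these arrays. The members, gene lists, named genes and alternatives were chosen with earlier results of these data known. Named genes were every member, the 4 pathway genes of smallest p where none passed, called markers and the 3 genes most like a called member. The markers Cited1 and Itga8, and further genes of the endoderm, notochord and neural lists, were named besides, to show the range within their lists. The alternatives were other priors, array weights, renewed normalization, median centring, a filter on dim probe sets, other units and thresholds, the pair block, and omission of each array or pair. Pax2 is not reported here.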

Additional observations from a re-analysis of the deposited data

How the results depend on the processing

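The direction of change of Bmp5, Bmp6, Bmp7, Grem1 and Bambi was the same in every fit that included their probe sets. Chrd did not turn either, but its change was only 0.00026 without array pair 1, so its direction is not settled. The genes that turned were not called in any fit. With 1 array left out, Bmp2 ranged from -0.018 to 0.66, Bmp4 from -0.061 to 0.49 and Nog from -0.25 to 0.44, and Nog was -0.027 without array pair 3. The number of member probe sets called, 2 of 13, was 3 with the intensity-dependent prior, array weights, the filter at the 33rd percentile (which left out Bmp2 and Nog), probe sets of 1 symbol or a threshold of 0.10, and 2 with the robust prior, renewed quantile normalization, median centring or the pair block. It was 0 at a threshold of 0.01, 0 to 2 with 1 array left out and 0 without array pair 1, 2 or 3. Fits by gene test the 9 members once each, and called 2 of 9 with 1 probe set per gene (Bmp5 and Bmp7) and 1 of 9 with the mean of a gene's probe sets (Bmp5). Of all probe sets tested, 311 passed, against 650 with array weights, 61 at a threshold of 0.01, 516 at 0.10, 772 with the pair block, 65 to 413 with 1 array left out, and 137, 0 and 0 without array pairs 1, 2 and 3. Bmp7 passed with an intensity-dependent prior (adjusted p = 0.0420), array weights (0.0171) and a filter at the 33rd percentile (0.0442), besides the fits given above, and not with the robust prior, renewed quantile normalization or median centring. Of the other pathway genes, 0 passed, against 1 (Msx1) with the intensity-dependent prior and 2 (Atoh8 and Msx1) with array weights, the filter, probe sets of 1 symbol, 1 probe set per gene, the mean of probe sets, the threshold of 0.10 or the pair block, and 0 to 1 with 1 array left out. The filtered and gene-level fits and the fit of 1-symbol probe sets adjust over fewer tests, and those without an array or pair rest on fewer samples. The cause of the other changes was not tested.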

Other observations

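The spread of several members within a genotype followed the array pairs. Bmp2 was highest in both arrays of pair 1 (5.47 in heterozygote 1 and 5.36 in null 3) and between 4.14 and 4.60 in the other 4 arrays (log2). Bambi was likewise highest of its genotype in both arrays of pair 1, at 9.94 and 10.22. Nog and Bmp4 ran the other way, lowest of their genotype in pair 1 (4.06 and 3.92 for Nog, 8.53 and 8.91 for Bmp4) and highest in pair 3 (4.87 and 5.30, and 9.48 and 9.85). With the pair as a block the standard error of the change was smaller for all 13 member probe sets, from 0.38 to 0.15 for Bmp2, from 0.33 to 0.13 for Bmp4 and from 0.37 to 0.15 for Nog. The same holds for 43867 of all 45037 probe sets, and the median ratio of the standard errors was 0.682 for the members and 0.712 over the table. Pair 2 joined heterozygote 2, in which Eif2s3y was at 3.92, with null 1, in which Xist was at 4.02, so sex-linked RNA also differed within this pair.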
